A study of Macaca mulatta with 2 samples.

Results

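Lymphatic-type and Schlemm canal-like endothelial cells made up 533 of the 14063 cells kept from the trabecular meshwork of rhesus macaques, 505 of them in the library labelled glaucoma and 28 in the library labelled normal. A cell was kept when it had at least 500 detected genes and under 20% of its unique molecular identifiers (UMIs) in mitochondrial genes. A kept cell was a member when it held at least 1 UMI of PECAM1, an adhesion molecule of all endothelium, and at least 1 UMI each of 2 or more of CCL21, MMRN1, PROX1, DNASE1L3 and RELN. The members were thus chosen by the measured UMIs of these 6 genes, whose levels are given as a description and were not tested.

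Lymphatic endothelium forms thin-walled vessels that drain tissue fluid and carry leukocytes, and the transcription factor PROX1 sets its identity from veins in development. Schlemm canal is the ring-shaped vessel at the edge of the cornea that takes up aqueous humour behind the trabecular meshwork, and its endothelium shares some genes of lymphatic vessels and keeps others of blood vessels. Angiopoietin signalling through TEK and vascular endothelial growth factor signalling through KDR and FLT4 are known for building the canal.

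The study compared single-cell RNA of meshwork tissue from monkeys with spontaneous glaucoma with that of healthy control animals, to find cell types and genes linked to aqueous outflow. Each condition had 1 library, which the labels mark by a genotype of glaucoma or normal, with no strain, allele, treatment or age given. How many animals or eyes went into a library is not stated. Both were 10x Genomics 3′ droplet libraries made from tissue digested with collagenase.

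The glaucoma members had a median of 2942 UMIs and 1390 genes per cell, and the normal members 3279 UMIs and 1549 genes. Summed over cells, the glaucoma members gave 2282599 UMIs and the normal members 101556, so values of the normal library carry wide counting intervals. Blood vascular endothelial cells served as the comparison. They were kept cells with PECAM1, with none of the 5 lymphatic genes and with at least 2 of CDH5, EGFL7 and ERG, and numbered 488 in the glaucoma and 200 in the normal library, with medians of 3018 and 2260 UMIs. Scrublet called 47 of the 505 glaucoma members and 0 of the 28 normal members doublets; these stayed in. The libraries shared 17 barcodes, and 3 glaucoma members had a barcode that also occurred in the normal library, though none was a member in both.

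CCL21, the chemokine that draws dendritic cells and T cells into lymphatic vessels, was the most widely held gene of the rule, with a UMI in 486 of 505 glaucoma members and 27 of 28 normal members. MMRN1, a secreted glycoprotein of lymphatic endothelium and platelets, was found in 404 and 23 members. DNASE1L3, a secreted nuclease, was found in 385 and 20. PROX1 was read in only 45 and 3 members, and RELN, a secreted glycoprotein of lymphatic vessels and neurons, in 39 and 1. The set thus rested mainly on CCL21, MMRN1 and DNASE1L3. All 3 together without PROX1 or RELN were held by 222 glaucoma and 10 normal members, CCL21 with MMRN1 alone by 95 and 8, and CCL21 with DNASE1L3 alone by 91 and 5.

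Scaled to 1000000 UMIs of the class total (CPM), CCL21 stood at 8374 in the glaucoma and 6952 in the normal members. Its UMIs per cell had a median of 13 in both libraries and reached 976 in 1 glaucoma cell. CCL21 was also present in 12.4% of glaucoma and 16.6% of normal cells that carried Schwann cell markers and no PECAM1, at 92.6 and 147 CPM and at median depths of 1181 and 1635 UMIs. With each cell thinned to 1000 UMIs, the share with CCL21 was 87.9% of glaucoma and 82.1% of normal members, against 8.00% and 11.9% of Schwann cells. RELN was found in 6.14% and 12.2% of Schwann cells and in 7.72% and 3.57% of members, and after thinning in 5.05% and 5.54% against 2.63% and 0%, so after thinning the share of members with RELN was below that background. MMRN1 and DNASE1L3 were each found in at most 5 of the 1287 glaucoma Schwann cells and in 0 of the 993 normal ones, which at 3 counts allows a share of cells with a UMI of up to 0.302%.

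Cells near the edge of the rule had mixed values. Exactly 2 of the 5 genes were held by 210 glaucoma and 14 normal members. Another 107 glaucoma and 12 normal endothelial cells held exactly 1 and fell outside. VWF, the clotting factor of blood vessel walls, was detected in 46.7% of the glaucoma cells with 1 gene, in 16.0% of the members and in 76.8% of the blood vascular cells. FLT4, the receptor for the lymphatic growth factor VEGF-C, was detected in 15.9% of the glaucoma cells with 1 gene, in 40.6% of the members and in 14.8% of the blood vascular cells.

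Members were 5.85% of kept cells in the glaucoma library (95% exact interval 5.36 to 6.37%) and 0.516% in the normal library (0.343 to 0.744%). The log2 ratio of these shares was 3.50, with a counting interval of 2.95 to 4.11. Blood vascular cells differed less between the libraries, at 5.65% against 3.68%, a log2 ratio of 0.62 (0.38 to 0.86). Among members and blood vascular cells together, members were 50.9% in the glaucoma and 12.3% in the normal library. With 1 library per condition there is no test of this difference, and the intervals cover counting error only. Disease, animal, dissection and library cannot be told apart as its source.

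Within the members, clustering on variable genes gave 6 sub-clusters, which are described by their leading genes and not tested. The largest, with 221 cells, was led by RNASE1, a secreted ribonuclease, and EFEMP1, a fibulin of the extracellular matrix, and had the highest CCL21 level, 12723 CPM. A group of 130 cells was led by PLAUR, the urokinase receptor, and DNER, a transmembrane ligand of Notch type, and had VWF at 7.67 CPM against 144 CPM in the largest group. A group of 109 cells was led by PLAAT4, APOL2, POSTN and IFI27 and had the matrix protein NPNT at 277 CPM against 127 in the largest group. FLT4 was read in all 3 groups, at 162, 169 and 179 CPM.

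The remaining sub-clusters were small and carried genes of other cells. A group of 48 cells was led by DCN, MGP and MYOC, genes of fibroblasts and meshwork, and 30 of these were called doublets. A group of 11 was led by CDH19, a cadherin of Schwann cells, with 6 doublet calls. A group of 14 was led by the muscle genes DES and MYH11, with 7 doublet calls and a median mitochondrial share of 12.9%. Leaving out these 3 sub-clusters kept 437 glaucoma and 23 normal members. Barcodes with genes of other cells were thus among the members.

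The 6 sub-clusters were spread over both libraries. The group led by PLAUR and DNER held 128 of 505 glaucoma members, or 25.3% (21.6 to 29.4%), and 2 of 28 normal members, or 7.14% (0.877 to 23.5%). The group led by RNASE1 and EFEMP1 held 41.0% of glaucoma members and 14 of the 28 normal members.

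**Figure D1:**
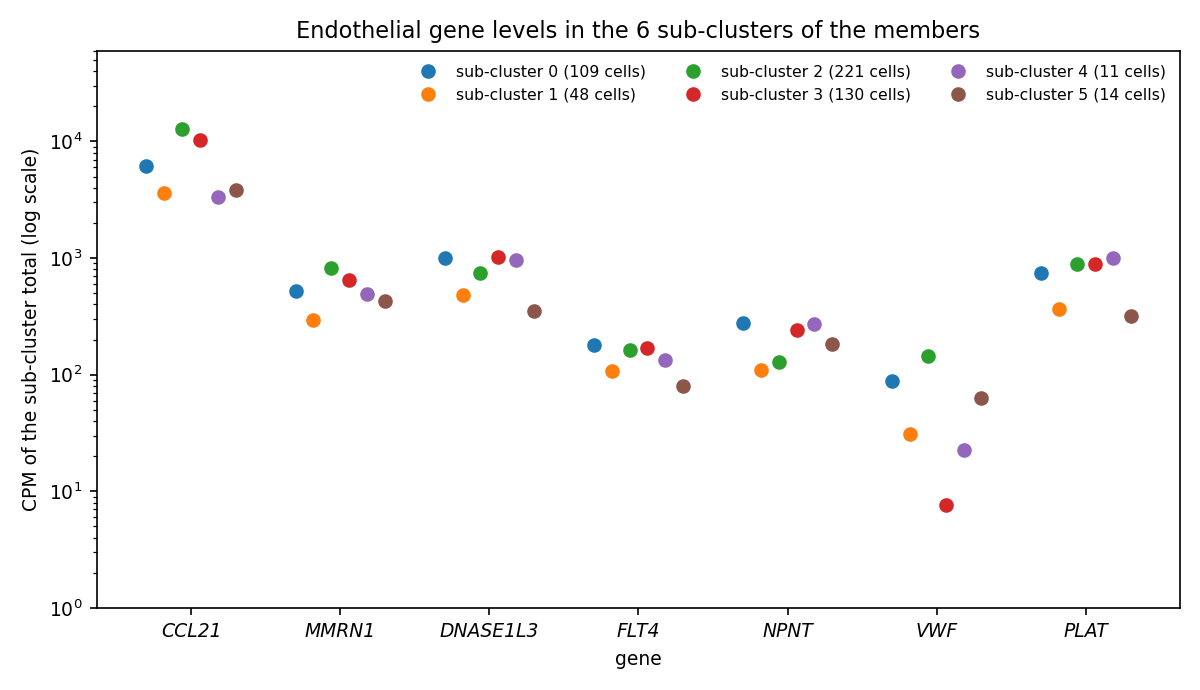
CPM (log axis) of 7 endothelial genes in the 6 sub-clusters of the members of both libraries, 1 point per sub-cluster. CCL21 lies between 3323 and 12723 CPM, and VWF is lowest, at 7.67 CPM, in the sub-cluster of 130 cells.

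Which genes set the lymphatic-type cells apart from blood vascular endothelium beyond the genes of the rule was asked on UMIs summed per class and library, which gave 4 sums, with the library as a block. Of 5605 genes with at least 100 UMIs over the 4 sums, 329 were called higher and 463 lower in the members, at an edgeR quasi-likelihood adjusted p under 0.05 and at least 2-fold. That is 5.87% and 8.26% of the genes tested, and the median log2 fold change over all of them was 0.0015. The normal library alone had the same direction for 306 of the 329 higher and 452 of the 463 lower genes. Since 28 cells stand behind the normal members, its own counting interval excluded no change in 214 and 265 of them. The normal sums were part of the fit that called these genes, so the agreement in direction was partly built in. The fit had 1 residual degree of freedom and shared its estimate of spread over genes, and how many animals stand behind each library is not stated.

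**Figure D2:**
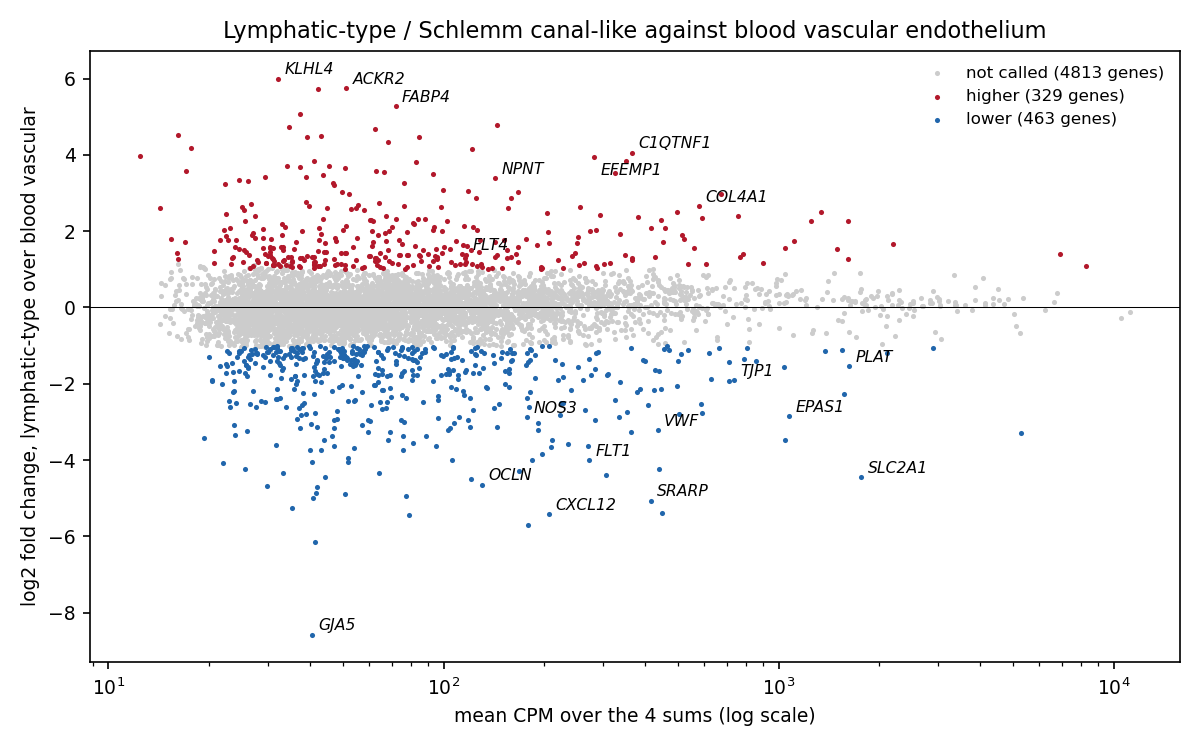
Log2 fold change of members over blood vascular cells against mean CPM over the 4 sums (log axis), 1 point per gene tested. The 329 genes called higher are red, the 463 called lower blue, and the change runs from 6.00 for KLHL4 to -8.58 for GJA5, which was at 0 in the members.

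Lymphatic identity genes outside the rule were higher in the members. Of the 23 genes of the list named in the files, 4 belong to the rule and 9 were under the count minimum. The other 10 were tested, and 8 of these rose and 0 fell, with a median log2 fold change of 2.20, where 5.87% of all genes tested were called higher. GATA2 and CD9 did not pass. The count minimum was taken over the 4 sums, so a gene could reach it through 1 class alone. KLHL4 did so, with 131 UMIs in the glaucoma members and 1 in the glaucoma blood vascular cells. List genes low in both classes were left untested. The share of the list that rose and its median were thus partly set by that minimum, which held for all genes tested.

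KLHL4, a kelch-type protein, stood at 57.4 CPM in the glaucoma and 68.9 CPM in the normal members, against 0.578 and 1.71 CPM in blood vascular cells. Each blood vascular sum held 1 UMI of it, and the log2 ratio in the glaucoma library had a counting interval of 4.13 to 11.95. The fitted log2 fold change of KLHL4 was 6.00 (edgeR adjusted p = 8.53e-11). SEMA3D, a secreted semaphorin, had 56.5 and 88.6 CPM in members against 0.578 and 18.8 CPM, and rose by 3.84 on the log2 scale. STAB2, a scavenger receptor for hyaluronan, had 45.1 and 98.5 CPM against 5.78 and 0 CPM, a log2 fold change of 3.67 (edgeR adjusted p = 2.75e-07).

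The transcription factors NR2F2 and MAF were also higher. NR2F2, which specifies veins and acts with PROX1, had 597 and 739 CPM in members against 134 and 199.97 CPM in blood vascular cells, and its log2 fold change was 2.08. MAF had 51.3 and 39.4 CPM against 5.78 and 1.71 CPM. TFPI, an inhibitor of blood clotting, was 79.3 and 68.9 CPM in members against 17.9 and 8.55 CPM. NRP2, a co-receptor for VEGF-C and semaphorins, was 341 and 433 CPM in members against 89.1 and 144 CPM, a log2 fold change of 1.84. Schwann cells held NRP2 at 239 and 172 CPM, NR2F2 at 218 and 335 CPM, and TFPI at 103 and 111 CPM, above its level in members. These genes were thus not read in endothelium alone.

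FLT4 was 153 and 167 CPM in the members, against 50.9 and 95.7 CPM in blood vascular cells. Its log2 fold change of 1.39 (edgeR adjusted p = 1.38e-05) was larger in the glaucoma library, at 1.59, than in the normal library, at 0.81. The FLT4 call was lost with DESeq2 (adjusted p = 0.0946) and with edgeR without the library block (adjusted p = 0.0674).

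The vessel markers LYVE1 and PDPN did not mark these cells. LYVE1, a hyaluronan receptor of lymphatic capillaries, had a UMI in 1 of 505 glaucoma members and in 0 of 28 normal members, which at 3 counts allows a share of cells with a UMI of up to 10.7% there. All kept cells of the series held 116 LYVE1 UMIs, and it was found in 1 glaucoma and 0 normal blood vascular cells. PDPN, a mucin-type surface protein of lymphatic endothelium, was found in 12 glaucoma and 2 normal members, at 8.32 and 19.7 CPM, below the 56.9 and 49.1 CPM of Schwann cells. With a minimum of 10 UMIs, its log2 fold change was -0.01 (edgeR adjusted p = 0.9978).

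That lower minimum, which a gene could also reach through the members alone, brought 7 more genes of the lymphatic identity list into the fit. Of 17, 12 were then higher and 0 lower, where 4.44% of the 10484 genes in that fit were called higher and 6.42% lower. SEMA3A, a semaphorin of lymphatic valves, had 37.7 and 68.9 CPM in members against 0.578 and 0 CPM, with an edgeR adjusted p of 8.54e-15. FOXC2, a transcription factor of valves, had 38 UMIs in glaucoma members and 0 in normal members against 2 and 1 in blood vascular cells. Its adjusted p by edgeR was 0.0018. ITGA9, the integrin needed for valve leaflets, had 20.6 and 39.4 CPM against 2.89 and 10.3 CPM (edgeR adjusted p = 3.07e-04).

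Also among the lower-count genes, the homeobox genes HOXD8 and HOXD9 were higher in the members. HOXD9 had 56 UMIs in the glaucoma and 1 in the normal members, with 0 in both blood vascular sums, which is at least 14.1-fold higher in the glaucoma library against a floor of 3 counts over the class. HOXD8 had 55 and 4 UMIs against 2 and 0. The lymphatic valve list as a whole had 0 higher and 2 lower of 6 tested genes at the minimum of 100 UMIs, and 4 higher and 2 lower of 14 at the minimum of 10. Its lower genes were the connexin GJA4 and the angiopoietin ANGPT2, both also known from arteries and sprouting vessels.

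**Figure D3:**
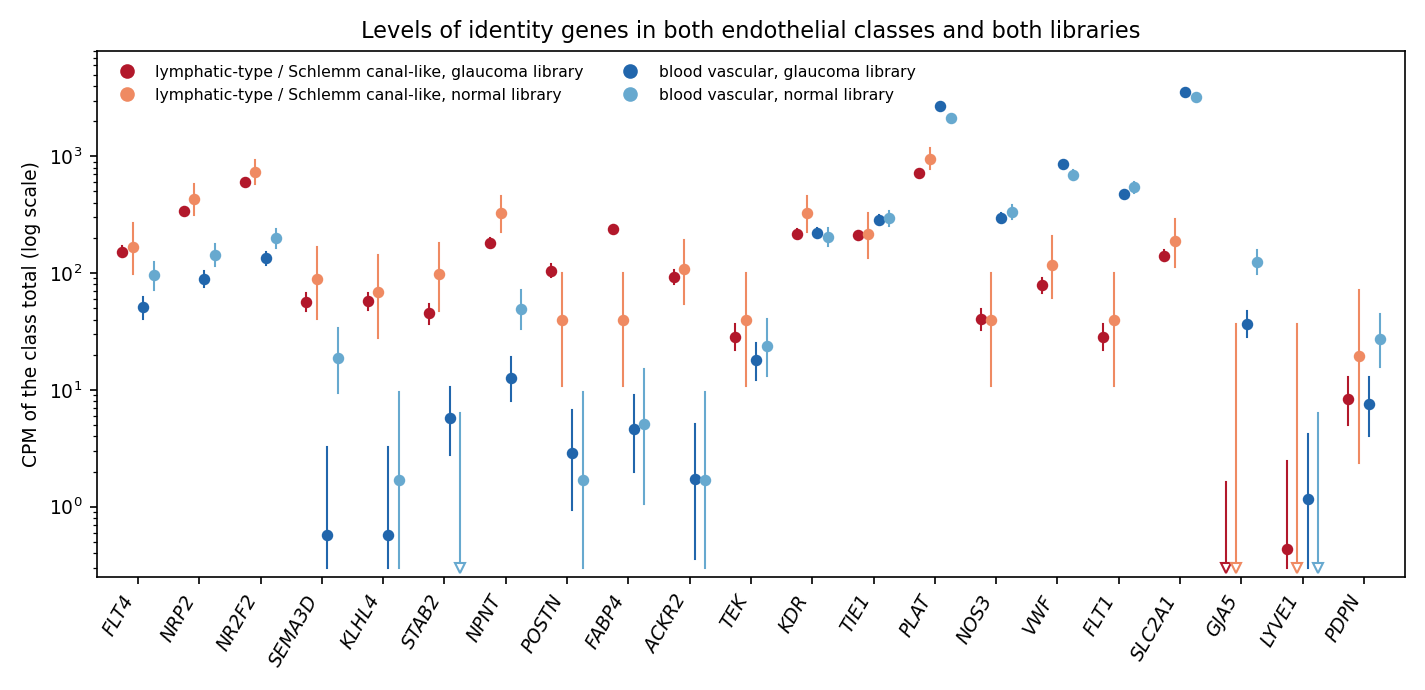
CPM (log axis) of 21 identity genes in members (red, orange) and blood vascular cells (blue, light blue) of each library, with lines for exact 95% Poisson intervals and open triangles for sums of 0, drawn at the axis foot. KLHL4, STAB2 and NPNT are higher in the members of both libraries, VWF, FLT1 and SLC2A1 are lower, and LYVE1 is near 0 in all 4.

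Genes associated with Schlemm canal were split. Of 10 tested, 4 rose (FLT4, NPNT, FN1 and POSTN), 3 fell (PLAT, NOS3 and ANGPT2) and TEK, KDR and TIE1 did not pass, with a list median of 0.46. NPNT, an integrin ligand of basement membranes, stood at 183 and 325 CPM in members against 12.7 and 49.6 CPM in blood vascular cells, a log2 fold change of 3.38 (edgeR adjusted p = 6.47e-14). FN1, the cell-binding matrix protein fibronectin, had 495 and 807 CPM in members against 33.0 and 64.9 CPM. POSTN, a matrix protein that binds collagen and integrins, had 105 and 39.4 CPM against 2.89 and 1.71 CPM. Of the 4 POSTN UMIs in normal members, 3 came from 1 barcode.

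TEK, the angiopoietin receptor, had 28.5 and 39.4 CPM in members against 17.9 and 23.9 CPM, and its log2 fold change of 0.71 did not pass (edgeR adjusted p = 0.2504). KDR, the main receptor for VEGF-A, had 217 and 325 CPM against 222 and 205 CPM (log2 fold change 0.22, edgeR adjusted p = 0.5142). The members therefore held TEK and KDR at levels that could not be separated from those of blood vascular cells in this design. PLAT, the plasminogen activator that dissolves clots, was lower, with 723 and 955 CPM against 2696 and 2116 CPM, but was still detected in 75.6% of glaucoma members, against 6.76% of Schwann cells. After thinning these shares were 46.3% and 4.43%. NOS3, the endothelial nitric oxide synthase, had 40.3 and 39.4 CPM against 297 and 335 CPM, and fell by 2.87 on the log2 scale. Whether a member lay in the wall of the canal or in another lymphatic-type vessel was not tested.

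Blood vascular genes were lower. Of 19 tested genes on that list, 11 fell and 1 rose, where 8.26% of all genes tested fell, and the list median was -1.12. The gene that rose, NR2F2, also stands on the lymphatic list. SLC2A1, the glucose transporter of barrier vessels, had 141 and 187 CPM in members against 3521 and 3223 CPM in blood vascular cells, and fell by 4.46 on the log2 scale (edgeR adjusted p = 4.27e-23). VWF had 78.9 and 118 CPM against 852 and 692 CPM. FLT1, the decoy receptor for VEGF-A, had 28.5 and 39.4 CPM against 478 and 542 CPM. All 3 were lower in the members of both libraries, as were 452 of the 463 genes called lower. Their values in the normal members rested on few UMIs or few cells. Of the 19 SLC2A1 UMIs there, 84.2% came from 1 barcode, as did 58.3% of the 12 VWF UMIs, and FLT1 had 4 UMIs.

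GJA5, the connexin of arteries, had 0 UMIs in the members of both libraries, against 64 and 73 UMIs in blood vascular cells. Against a floor of 3 counts over the class, it was at least 28.2-fold lower in the glaucoma and at least 4.22-fold lower in the normal library. DESeq2 did not call GJA5 (adjusted p = 0.506). ABCB1, the drug efflux pump of barrier vessels, had 36.4 and 29.5 CPM in members against 335 and 366 CPM. SELP, the selectin that slows rolling leukocytes, had 2.19 and 9.85 CPM against 70.6 and 85.5 CPM. EMCN, PLVAP and CLU were among the 7 genes of the list that did not pass. ACKR1 and SELE, markers of venules, held 36 and 13 UMIs in all kept cells and were too sparse to use.

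Genes of endothelium at large mostly did not pass the test. Of 16, 0 rose and 3 fell (ESAM, FLI1 and TM4SF1), with a median of -0.03. The counts were 1 and 1 of 15 with the 3 sub-clusters led by other cells left out. Blood vascular cells had to hold at least 2 of CDH5, EGFL7 and ERG, and members did not. Held to that gate, 387 glaucoma and 22 normal members remained, and 0 rose and 2 fell of 16, with a median of 0.01. ICAM2, a leukocyte adhesion molecule, had 324 and 305 CPM in members against 309 and 304 CPM. TIE1, the partner receptor of TEK, had 210.3 and 217 CPM against 286 and 296 CPM, a log2 fold change of -0.41 (edgeR adjusted p = 0.1599). PECAM1, which chose both classes, stood at 2105 and 2127 CPM in members against 960.0 and 1092 CPM.

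Cell junction genes fell more often than they rose. Of 15 tested, 6 were lower and 2 higher, where 8.26% of all genes tested were lower and 5.87% higher. The same shares stand beside the list counts that follow. OCLN, a membrane protein of tight junctions, had 11.4 and 9.85 CPM in members against 297 and 203 CPM, and fell by 4.64 on the log2 scale (edgeR adjusted p = 1.23e-16). JAM2, an adhesion molecule of tight junctions, had 7.45 and 9.85 CPM against 137 and 53.0 CPM. TJP1, the tight junction scaffold, had 272 and 374 CPM against 1186 and 1119 CPM. The higher genes were JUP, which links cadherins to the cytoskeleton, with 312 and 345 CPM against 88.5 and 73.5 CPM, and CGNL1, with 109 and 207 CPM against 43.4 and 58.1 CPM. CLDN5, the main claudin of vessels, held 136 UMIs in all kept cells and was under the minimum.

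Growth factor genes moved in both directions. Of 9 tested genes of the VEGF family and its receptors, 3 rose (PGF, FLT4 and NRP2) and 3 fell (VEGFC, FLT1 and NRP1). PGF, a ligand of FLT1, had 259.8 and 167 CPM in members against 28.9 and 42.7 CPM, a log2 fold change of 2.86. VEGFC, the ligand of FLT4, had 44.2 and 19.7 CPM against 207 and 188 CPM, and fell by 2.29. Among 8 angiopoietin and TIE genes, ANGPTL2 rose, with 77.1 and 98.5 CPM against 8.68 and 15.4 CPM, and ANGPT2, an antagonist of TEK, fell, with 9.20 and 9.85 CPM against 41.1 and 104 CPM. So in members the receptor FLT4 was higher and its ligand VEGFC lower than in blood vascular cells.

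Notch genes were lower. Of 9 tested, 5 fell and 0 rose, with a median of -1.67. The ligands DLL4, JAG1 and JAG2 fell, and so did HEY1 and HEY2, transcription factors switched on by Notch. DLL4 had 80.2 and 49.2 CPM in members against 243 and 238 CPM. JAG1 had 129 and 148 CPM against 428 and 538 CPM. HEY2 had 8 and 1 UMIs in the members against 65 and 31 in blood vascular cells, a log2 fold change of -3.24. The lower count was 3 of 7 with doublets left out, where 491 of all 5217 genes were lower. HES1, also a Notch target, was not called, at 624 and 709 CPM against 674 and 545 CPM.

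Many matrix and basement membrane genes rose. Of 26 tested, 13 were higher and 4 lower, with a median log2 fold change of 1.01, and the counts were 12 and 5 of 25 with the 3 sub-clusters led by other cells left out. COL4A1, a chain of the collagen IV of basement membranes, had 1170.2 and 807 CPM in members against 155 and 178 CPM, a log2 fold change of 2.65 (edgeR adjusted p = 7.15e-15). LAMA4, a laminin chain of vessel walls, had 568 and 611 CPM against 37.6 and 82.0 CPM. EFEMP1 had 608 and 443 CPM against 32.4 and 44.4 CPM, a log2 fold change of 3.95 (edgeR adjusted p = 1.34e-17). COL18A1, LAMB1, LAMC1, TIMP1 and TIMP2 rose as well. The 4 lower genes were SPARCL1, FBLN5, TGFBI and ADAMTS1, and SPARCL1 had 753 and 1201 CPM against 1846 and 2376 CPM. Fibroblast markers summed to 5727 and 6066 CPM in members, against 3766 and 5425 CPM in blood vascular cells and 16779 and 23581 CPM in fibroblast-marker cells. APOD made up most of that sum, and the other 7 markers came to 469 and 1034 CPM in members against 509.5 and 949 CPM in blood vascular cells. Their part in the matrix result was not tested beyond the counts without those sub-clusters.

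Genes of chemokine traffic were divided. Of 11 tested, 3 rose and 4 fell, and 1 rose without the library block. ACKR2, a decoy receptor that removes inflammatory chemokines and is known from lymphatic vessels, had 93.3 and 108 CPM in members against 1.74 and 1.71 CPM, a log2 fold change of 5.76 (edgeR adjusted p = 1.82e-13). CCL2, which attracts monocytes, had 253 and 601 CPM against 56.1 and 181 CPM, but 90.2% of its UMIs in normal members came from 1 barcode. CXCL2 was called higher but differed in direction between libraries, with 82.4 CPM against 17.4 CPM in the glaucoma library and 49.2 against 106 CPM in the normal library. CXCL12, which guides leukocytes and artery growth, had 25 and 0 UMIs in members and, in blood vascular cells, 457 and 355 CPM. It fell, and was at least 12.0-fold lower in the normal library against a floor of 3 counts.

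Among scavenger receptors, STAB1, STAB2 and DAB2 rose and SCARB1, CD320 and FCN3 fell, of 8 tested. STAB1 had 221 and 433 CPM in members against 92.0 and 80.3 CPM. FCN3, a lectin of the complement system, had 43.8 and 0 CPM against 368 and 167 CPM. In lipid handling, 3 of 11 genes rose and 2 fell, and 1 rose with DESeq2. FABP4, a fatty acid carrier of capillaries and fat cells, had 239 and 39.4 CPM against 4.63 and 5.13 CPM, a log2 fold change of 5.27. All 4 FABP4 UMIs of the normal members came from 1 barcode. PPARG, a regulator of lipid storage, had 55.6 and 39.4 CPM against 16.8 and 10.3 CPM.

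In the TGF-beta and BMP pathway, 3 of 14 genes rose (TGFB2, TGFBR2 and SMAD1) and 3 fell (ACVRL1, ID1 and ID3). SMAD1, which carries the BMP signal to the nucleus, had 609 and 659.7 CPM in members against 113 and 140.1 CPM, a log2 fold change of 2.38. ACVRL1, the endothelial receptor for BMP9, had 132 and 148 CPM against 538 and 529.8 CPM. ID1, a target gene of that receptor, had 154 and 197 CPM against 966 and 1027 CPM. The lower count was 7 of 13 both with doublets left out and with the 3 sub-clusters led by other cells left out. Over all genes in those settings, 491 of 5217 and 561 of 5229 were lower.

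Endothelial transcription factors showed 4 higher and 3 lower genes of 19. ELK3 had 866 and 1339 CPM in members against 388 and 484 CPM. EPAS1, the oxygen-regulated factor also called HIF-2 alpha, had 202 and 354 CPM against 1715 and 2024 CPM, and fell by 2.84 on the log2 scale (edgeR adjusted p = 1.17e-16). Among genes of flow sensing, nitric oxide and caveolae, 1 of 17 rose (CAVIN3) and 3 fell (NOS3, NOSTRIN and GUCY1A1), of which DESeq2 called 1. CAV1, the coat protein of caveolae and a glaucoma risk locus, had 275 and 384 CPM against 175 and 185 CPM, a log2 fold change of 0.82 that was under 2-fold (edgeR adjusted p = 0.0017). Of 17 tested genes at glaucoma loci, AFAP1 rose and CYP1B1 fell, about as many as the 5.87% and 8.26% over all genes tested would give. DESeq2 called neither direction there, and 0 rose and 6 of 16 fell with the 3 sub-clusters led by other cells left out. In that last setting, 328 of all 5229 genes were higher and 561 lower.

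Interferon-response genes were lower, and so were 3 class II antigen presentation genes. Of 17 interferon-response genes, 10 fell and 0 rose, with a median of -1.33. However, DESeq2 called 2 lower and edgeR without the library block 5, where these called 193 and 281 of all 5605 genes lower. BST2, an antiviral membrane protein, had 5.26 and 49.2 CPM in members against 71.1 and 103 CPM. IFIT1, an antiviral RNA-binding protein, had 35.5 and 39.4 CPM against 144 and 103 CPM. IFI44L and MX2 were lower only in the glaucoma library, with log2 ratios of -2.09 and -1.74 there and of 0.16 and 0.09 in the normal library, and that difference was not tested. Of 10 antigen presentation genes, the class II genes CD74, MAMU-DRA and MAMU-DQA1 fell and 7 were not called, among them the class I genes MAMU-A and MAMU-E. MAMU-DRA had 166 and 39.4 CPM against 857 and 571 CPM.

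Genes that respond to tissue handling were mostly lower or not called. Of 11 immediate early genes, FOS, EGR1 and ZFP36 fell and 0 rose. With members held to the gate of the blood vascular cells, 1 of 11 rose and 3 fell. The counts were 1 and 3 of 10 both for members with at least 3 of the 5 genes and with the 3 sub-clusters led by other cells left out. Over all genes in these settings, 258 of 5441, 285 of 5187 and 328 of 5229 were higher. ZFP36, which destabilises messenger RNA, had 591 and 443 CPM in members against 2603 and 2625 CPM. Of 10 heat shock genes, 0 passed in either direction, with a median of 0.04. In the adrenomedullin system, RAMP1 fell, a call lost with DESeq2, and the other 4 did not pass, among them RAMP2, the receptor partner needed for lymphatic growth, with 986 and 286 CPM against 535 and 178 CPM. CDK1 and PCNA were the tested genes of the cell cycle list, and neither passed. With the minimum of 10 UMIs, 3 of 11 cell cycle genes rose, beside 4.44% of all genes in that fit.

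**Figure D4:**
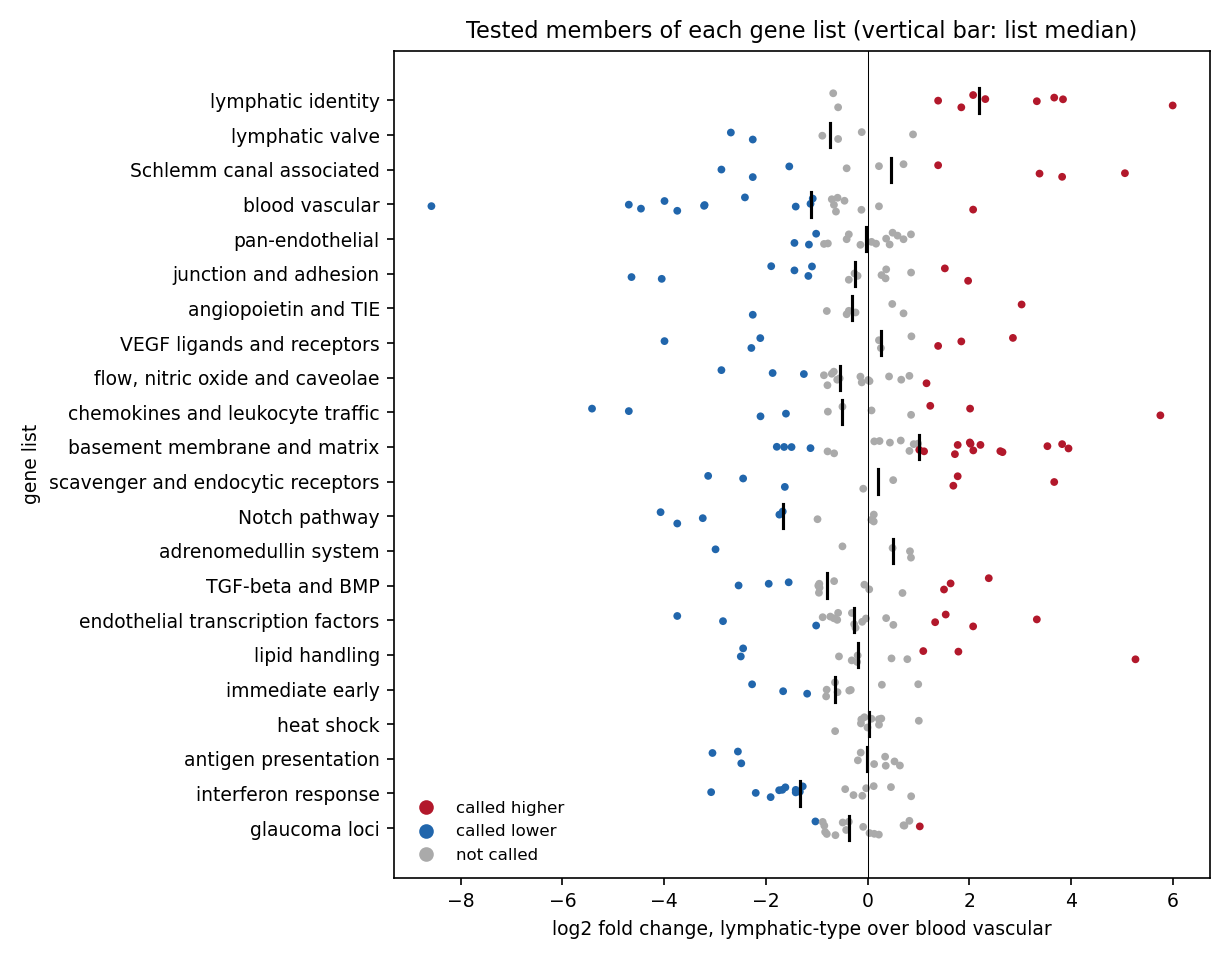
Log2 fold change of members over blood vascular cells for each tested gene of 22 lists (red called higher, blue called lower, grey not called; vertical bar, list median). Lymphatic identity has the highest median, 2.20, and Notch pathway the lowest, -1.67.

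The largest changes among all named genes, under the limits on level and direction given with the methods, included genes outside these lists. DNER had 107 and 59.1 CPM in members against 2.31 and 0 CPM. PRCP, a lysosomal and vascular peptidase, had 294 and 266 CPM against 12.7 and 5.13 CPM, a log2 fold change of 4.78 (edgeR adjusted p = 2.37e-17). C1QTNF1, a secreted protein of the C1q and TNF family, had 626 and 748 CPM against 36.4 and 49.6 CPM (log2 fold change 4.06, edgeR adjusted p = 4.12e-19). ABI3BP, a matrix protein, had 212 and 246 CPM against 10.4 and 18.8 CPM.

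Further higher genes were receptors and cell-shape genes. C3AR1, the receptor for complement fragment C3a, had 122 and 118 CPM in members against 4.63 and 5.13 CPM. PLAUR had 93.8 and 68.9 CPM against 2.89 and 6.84 CPM, and 57.1% of its UMIs in normal members came from 1 barcode. GPM6A, a neuronal membrane glycoprotein, had 151 and 177 CPM against 9.83 and 0 CPM, and was also present in Schwann cells at 86.9 and 141 CPM. Its call was lost with DESeq2 (adjusted p = 0.0632). HOMER3, DAPK1 and PARD6G completed the 15, with log2 fold changes of 4.73, 4.48 and 4.34.

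Of the 12 lowest, KCNJ2, an inward rectifier potassium channel, had 2 and 0 UMIs in members against 116 and 57 in blood vascular cells. ACER2, a ceramidase of the Golgi, had 6.57 and 9.85 CPM against 368 and 332 CPM, a log2 fold change of -5.70 (edgeR adjusted p = 4.80e-19). FMO2, a monooxygenase, had 19.3 and 9.85 CPM against 778 and 989.6 CPM. SRARP had 30.2 and 19.7 CPM against 1053 and 559 CPM. ASNS, the asparagine synthetase, had 3.50 and 9.85 CPM against 121 and 174 CPM. DUSP26, EXPH5, PROM1, ATP2A3 and the class II gene MAMU-DOA had log2 fold changes between -5.43 and -4.88. The rule for naming required the same direction in both libraries, so their agreement is no finding.

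Markers of other cells were present in both endothelial classes. Meshwork markers summed to 1437 CPM in the glaucoma and 3348 in the normal members, against 2432 and 6925 CPM in blood vascular cells. Macrophage markers summed to 458 and 128 CPM in members, with 7 of 9 at 0 in the normal members. CD14, which is on that list, was called higher in members, with 184 and 118 CPM against 50.3 and 18.8 CPM. Lymphocyte markers summed to 19.3 CPM in the glaucoma members and were all at 0 in the normal ones. Schwann markers summed to 886 and 620 CPM in members and 388 and 552 CPM in blood vascular cells, against 20504 and 24568 CPM in Schwann cells. PMP22 made up most of the sum in members, and the other 8 came to 202 and 128 CPM in members against 184 and 227 CPM in blood vascular cells. Pericyte markers were lower in members, at 113 and 19.7 CPM against 249.8 and 244 CPM. Haemoglobin HBB was 714 CPM in the glaucoma blood vascular cells and 46.9 CPM in the glaucoma members. The part of these genes in the comparison was not tested.

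Between the glaucoma and normal members themselves, 130 of 5427 genes with at least 50 UMIs were at least 2-fold higher and 270 at least 2-fold lower in the glaucoma library, with a 95% counting interval that excluded no change. These are 2.4% and 4.98% of the genes measured. A gene with 0 UMIs in the normal members was given the floor count used for the bounds above, which can only lower its ratio. NDUFA4L2, with 103 UMIs against 0, was therefore not called higher. RGS5, with 60 against 0, was not called because its counting interval began at -0.51 and so included no change. RGS5 entered the median with a log2 ratio of -0.17. The excess of lower over higher genes and the median were thus partly built in. Scaling by TMM in place of total UMIs gave 315 higher and 110 lower and moved the median log2 ratio from -0.04 to 0.25, so the split between directions depended on the scaling. Leaving out, for each gene, the normal barcode with most of its UMIs, which can only take UMIs from the normal side, gave 278 higher and 70 lower. With 1 library per condition and 28 normal cells, these ratios have no test. Of the genes of the rule, which chose the members in both libraries, the log2 ratio of CCL21 was 0.27, of MMRN1 -0.49, of DNASE1L3 -0.04 and of PECAM1 -0.02, given as a description only.

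Identity genes were held to the same limits, which 2.4% of all genes measured passed as higher and 4.98% as lower. Of 12 measured genes of the lymphatic identity list, 0 were higher and 2 lower in the glaucoma members (PKHD1L1 and STAB2). Both rested on few UMIs in the normal members. PKHD1L1 had 7, with a log2 ratio of -1.54 (-2.68 to -0.16), and STAB2 had 10, with -1.13 (-2.06 to -0.02). Of 13 measured blood vascular genes and 19 transcription factors, 0 passed in either direction. FLT1, with 4 UMIs in normal members, had an interval of -1.89 to 1.45, so a gene that did not pass may still differ 2-fold. FLT4 had a log2 ratio of -0.13 (-0.83 to 0.67), and NR2F2 of -0.31 (-0.64 to 0.05).

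RAMP2 was higher in the glaucoma members, at 986 against 286 CPM, a log2 ratio of 1.79 (1.26 to 2.37), and the blood vascular cells showed 1.59 (1.30 to 1.90). IGFBP7, a secreted binding protein, had a log2 ratio of 1.90 (1.06 to 2.91) in members and 1.21 in blood vascular cells. MAMU-E, a class I gene, had 1.17 in members and 0.98 in blood vascular cells. TGFB2 was lower in the glaucoma members, at 105 against 246 CPM, with log2 ratios of -1.23 in members and -1.44 in blood vascular cells. These 4 genes thus differed between the libraries in both endothelial classes, and the classes share the libraries. In Schwann cells, IGFBP7 was also higher in the glaucoma library, at 344 against 97.0 CPM. TGFB2 was also lower there, at 53.4 against 142 CPM, so the differences of these genes were not particular to endothelium.

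Other differences rested on few molecules or few cells. FABP4 had a log2 ratio of 2.60 (1.24 to 4.48) in members and -0.15 in blood vascular cells, with its 4 normal UMIs in 1 barcode. MYOC, the meshwork glaucoma gene, was 1278 against 2865 CPM in members. It stood at 2035 against 6061 CPM in blood vascular cells, and at 5566 against 5995 CPM in Schwann cells. All 4 measured meshwork markers were lower in the glaucoma members, but for each gene 1 barcode held a large share of the normal UMIs, all of those of ANGPTL7, 94.1% of those of CHI3L1, 81.2% of RARRES1 and 49.8% of MYOC. Without that barcode the log2 ratio of MYOC moved from -1.16 to -0.25 and that of RARRES1 from -2.22 to 0.09. Of the EGR1 UMIs in normal members, 73.7% came from 1 barcode.

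By the rule for naming, the highest ratios were those of LYZ, APOE, CPVL, ACTR1B, NR4A1 and HES4. APOE, a lipid carrier, had 832 UMIs in the glaucoma members and 0 in the normal members, a log2 ratio of at least 3.63 against a floor of 3 counts, and stood at 12872 and 6129.8 CPM in Schwann cells. With the 3 sub-clusters led by other cells left out, that bound was 0.50. The other 5 each had 1 UMI in the normal members. LYZ, the enzyme lysozyme, had a log2 ratio of 3.80 with an interval of 1.32 to 9.11.

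The lowest were AKAP12, PCSK1N, KRT19, CPXM2, CCDC80 and ART4. AKAP12, a scaffold protein, was 131 against 1231 CPM, a log2 ratio of -3.24, with 51.2% of its normal UMIs in 1 barcode, and its ratio was -0.37 with the 3 sub-clusters led by other cells left out. In PCSK1N, KRT19 and CPXM2, 1 barcode held 57.1, 66.7 and 56.5% of the normal UMIs, and in CCDC80 6 of 12. Without that normal barcode, the log2 ratio of PCSK1N was -1.88, of KRT19 -1.39, of CPXM2 -1.59 and of CCDC80 -1.49, and the interval of CCDC80, -2.71 to 0.03, then included no difference. That of AKAP12 was -2.31. ART4, a surface ADP-ribosyltransferase, was the exception, with 68 and 16 UMIs, at most 18.8% of the normal ones in 1 barcode and a log2 ratio of -2.40 (-3.20 to -1.52). ART4 had 1.16 and 0 CPM in blood vascular cells, so it was read mainly in the members of this pair of classes.

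**Figure D5:**
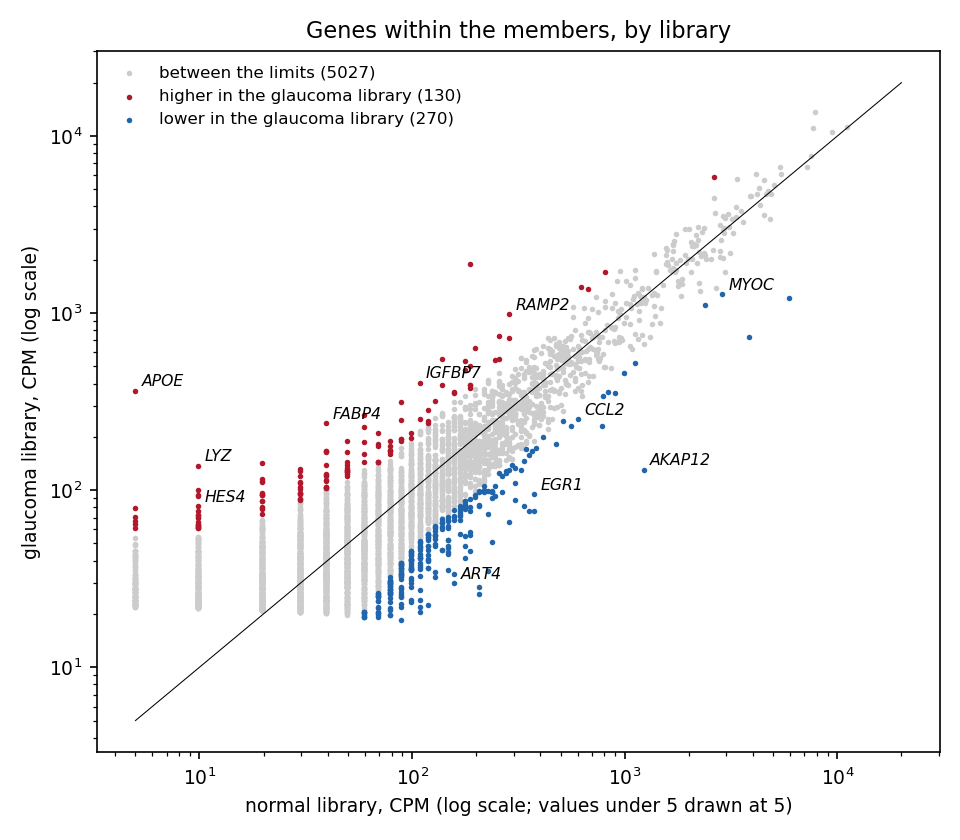
CPM of each of 5427 genes in the glaucoma members against the normal members (both axes log, values under 5 drawn at 5), with the line of equal level. The 130 genes marked higher include APOE, at 0 in the normal members, and the 270 marked lower include AKAP12, and points in columns at the left are genes with few normal UMIs.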

How the data were processed

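The authors deposited 1 matrix of UMI counts per library, as whole numbers per gene and barcode without normalization. Per the submitters' processing notes Cell Ranger 4.0 and Seurat 3.0 were used, while per the file headers the matrices came from Cell Ranger 6.0.0. The genome build was not given in the sources used here. Of 24037 features, 15580 had a symbol in the files and 873 took one from a reference table of names. CLEC14A and ECSCR, listed for the blood vascular gate, had no named feature, so that gate used 3 genes.

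Kept cells numbered 8633 (glaucoma) and 5430 (normal) of 10624 and 7028 barcodes. Scrublet, as in scanpy 1.11.5, called 3.43% and 0.829% of kept cells doublets, at expected rates of 6.91% and 4.34%; they stayed in, and an alternative left them out. Members were clustered by Leiden at resolution 0.5. UMIs were summed per class and library and tested with edgeR 4.0.16 (R 4.3.3; TMM, quasi-likelihood test, Benjamini-Hochberg adjustment over all genes), library as block, with the genes of the gates left out of the tests. On simulated data this recovered 42% of genes changed by 1 and 98% of genes changed by 2 on the log2 scale, with 3 false calls among 5405 unchanged genes. The simulated counts had the same spread for all genes and no difference between libraries. Calls there were made on the adjusted p alone, without the 2-fold limit. The false calls thus do not measure the error of the calls reported here. DESeq2 1.42.0 was an alternative. Ratios between libraries had exact 95% conditional binomial intervals and shares Clopper-Pearson intervals, which cover counting error only. The number of animals per library is not stated, so p-values measure only the spread between these 4 sums.

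Named genes were the 15 highest and 12 lowest changes past the call, with the same direction in both libraries and at least 50 CPM in the higher class, without mitochondrial, ribosomal or gate genes; the members of the gene lists; and the 6 highest and 6 lowest ratios between libraries. Where other genes are named, they were chosen after their values were seen. The members, lists and this rule were chosen with earlier results of these data known. Leaving out the sub-clusters led by other cells, and the normal barcode with most UMIs of a gene, was chosen after seeing the data. Where a share is 0, the upper limit given is 3 counts of the total.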

Additional observations from a re-analysis of the deposited data

Results flagged for a closer look

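In 7 genes of the lists, the difference between members and blood vascular cells ran in opposite directions in the 2 libraries, each with a 95% counting interval that excluded no difference. With 1 library per condition that contrast was not tested. HES4, a Notch-family target, had a log2 ratio of 0.44 in glaucoma and -2.68 in normal. NR4A1, an immediate early nuclear receptor, had 1.04 and -4.03, and both genes had 1 UMI in the normal members. IL33, an alarmin, had -2.66 and 2.30, with 5 and 6 UMIs in the members. MAMU-B, a class I gene, had -0.12 and 0.38. DCN, a fibroblast proteoglycan, had -0.63 and 0.39, and 1 barcode held 49.4% of its 79 UMIs in normal members. ACTA2, the smooth muscle actin, had 0.26 and -1.32, and DNAJB1, a heat shock gene, 0.26 and -0.80.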

How the results depend on the processing

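The count of genes higher in members than in blood vascular cells was 329 and moved to 153 with DESeq2, 204 with no replicate block for the library and 119 with cells thinned to 1000 UMIs. The count of lower genes was 463 and moved to 193, 281 and 233 under the same settings. Thinning left 2030 genes to test. With doublets left out, 312 were higher and 491 lower of 5217 genes. With the 3 sub-clusters led by other cells left out, the counts were 328 and 561 of 5229. With members held to the gate of the blood vascular cells, they were 258 and 393 of 5441. DESeq2 called 151 of the 329 and 193 of the 463. The log2 fold change of KDR was -0.0306 without the normal library and 0.6639 without the glaucoma library. GPHA2, called higher, was at -2.00 with the 3 sub-clusters led by other cells left out. No other called gene reversed in a refit over both libraries. In the normal library alone, which was part of the fit that made the calls, 306 of the 329 and 452 of the 463 had the same direction. Leaving out a library leaves no residual degrees of freedom, so these counts have no such value. Between libraries, 130 genes were higher, against 79 with at least 3 of the 5 genes, 77 with CCL21 not counted and 315 with TMM factors, which also moved the 270 lower genes to 110. Without the normal barcode holding most UMIs of each gene, 278 were higher and 70 lower. The log2 ratio of the shares of members stayed between 3.38 and 3.73 over 7 settings. The 28 normal members limit every value of the normal library.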
